A study of Mus musculus with 8 samples.

Results

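The aggrecan aggregate is the water-holding complex of cartilage. Aggrecan and versican are hyalectans, large proteoglycans whose N-terminal domain binds the polysaccharide hyaluronan. Link proteins of the Hapln family fasten that contact, hyaluronan synthases of the plasma membrane extrude the polysaccharide, and CD44 is the receptor that holds hyaluronan at the cell surface. In cartilage, aggrecan with its charged chains carries compressive load, while versican belongs more to the early cartilage template and to fibrous tissue.

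RNA levels were described for 9 genes of this complex among the 24067 genes of the deposited table: Acan and Vcan (hyalectans), Hapln1, Hapln3 and Hapln4 (link proteins), Has1, Has2 and Has3 (synthases) and Cd44. They were matched to the table by gene symbol, and the set was drawn up with earlier results of these data known. The tested libraries came from cultured mouse chondrocytes given a mimic of miR-204, and the controls from the same kind of cells given the control small RNA miR-Ctrl, each at 50 nM, with 4 libraries per group. Transfection took 24 h and the cells were collected 24 h after it. All cells were primary cultures from the knee joint cartilage of 5-day-old ICR mice, kept at 3% oxygen with 10% serum. A mimic is a synthetic duplex that supplies the mature small RNA from outside the cell. The labels do not say whether animals were pooled or whether replicates were separate cultures, and p-values then reflect spread among libraries that may be technical.

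Levels are FPKM, sequenced fragments relative to transcript length and library size. FPKM summed to between 416560 and 490818 per library. The depth relative to miR-Ctrl replicate 1 was 0.799 in miR-204 replicate 2 and 0.773 in miR-Ctrl replicate 2, and 0.929 to 0.963 in the other 5 libraries. Chondrocyte markers, 10 of 10 of them above the filter described below, summed to 13480 to 33161 FPKM in miR-204 libraries and 13158 to 41070 FPKM in miR-Ctrl libraries. Both replicate 2 libraries stood apart, with marker sums of 13480 (miR-204) and 13158 FPKM (miR-Ctrl), against 24780 to 41070 FPKM in the other 6. Calls are therefore given with and without that pair.

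The question was whether the mimic moved transcripts of this complex, and a mimic acts first through its seed, bases 2 to 8 of the small RNA, which pairs with matches in 3′ UTRs. The mature sequence of miR-204-5p (RefSeq, GRCm38.p6, chr19:22750610-22750631, plus strand) is shown with its seed in capitals, because the matches described next are its reverse complement.
miR-204-5p: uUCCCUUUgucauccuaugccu

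A match was called an 8mer (AAAGGGAA), a 7mer-m8 (AAAGGGA), a 7mer-A1 (AAGGGAA) or a 6mer (AAGGGA), each read on the transcript strand only and counted once under its longest form. Among annotated 3′ UTRs (GENCODE M21, the mm10 assembly; the longest one per gene), Hapln1 held 2 8mers, 1 7mer-m8 and 2 7mer-A1 matches, in 3503 nucleotides. Has2 held 1 8mer and 2 7mer-A1 matches in 2032 nucleotides. Has3 held 1 7mer-A1 and 1 6mer, Hapln3 held 2 6mers, Acan held 1 6mer, and none of these forms was found in the 3′ UTRs of Vcan, Cd44, Has1 and Hapln4. Of 19974 genes of the table with an annotated 3′ UTR, 22.4% held at least 1 7mer or 8mer, 6.47% held an 8mer and 0.516% (103 genes) held 2 or more 8mers. Hapln1 was 1 of those 103. Length was not taken into account: the median 3′ UTR of the 19974 genes was 996 nucleotides, against 3503 for Hapln1.

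The 5 matches of Hapln1 lay in 3′ UTR sequence on chromosome 13 (gene at 89539796 to 89611652, plus strand), and the 3 of Has2 on chromosome 15 (gene at 56665627 to 56694539, minus strand). Each is shown in 30 bases of mm10 transcript sequence, 5′ to 3′, with the match in capitals.
Hapln1 7mer-A1, chr13:89608486-89608515, plus strand: aggattgtagtAAGGGAAgtaatgctactt
Hapln1 7mer-A1, chr13:89608650-89608679, plus strand: ctcactatcatAAGGGAAcaacagagactt
Hapln1 8mer, chr13:89609236-89609265, plus strand: atttatagaagAAAGGGAAaaatacatttc
Hapln1 7mer-m8, chr13:89611029-89611058, plus strand: tgaccactaaaAAAGGGAggattcaaaggg
Hapln1 8mer, chr13:89611042-89611071, plus strand: agggaggattcAAAGGGAAtcagttgtcag
Has2 7mer-A1, chr15:56667271-56667300, minus strand: tctgaaaactcAAGGGAAcgttctttcaac
Has2 8mer, chr15:56666670-56666699, minus strand: tatttttttcaAAAGGGAAtcctagtcttt
Has2 7mer-A1, chr15:56665926-56665955, minus strand: agatactgtctAAGGGAAagctgcacactc

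The last 2 matches of Hapln1 were 6 bases apart, so their windows overlap. The map of matches shows how the sites were spread over the 3′ UTRs.

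**Figure D1:**
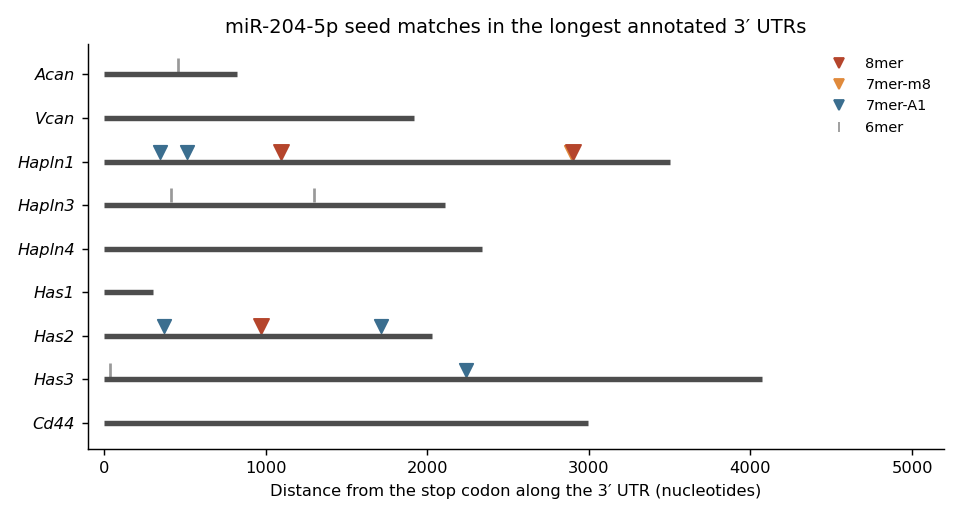
miR-204-5p seed matches in the 3′ UTRs of the 9 genes (the longest one per gene), by distance from the stop codon in nucleotides (x axis); bars are the 3′ UTRs and markers the matches, coloured by type. Hapln1 carries 5 matches of 7 or 8 bases, its 7mer-m8 lying under the last 8mer marker, Has2 carries 3 and Has3 carries 1; the others carry 6mers or no match.

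Of the 9 genes, 6 reached the mean of 1 FPKM over the 8 libraries that a gene needed to be tested, and Hapln4, Has1 and Has3 did not. Without regard to replicate number, 0 of the 6 passed limma's test on log2(FPKM + 1) at an adjusted p of 0.05, and 2 were below an unadjusted p of 0.05 (Hapln1 at 0.0352 and Has2 at 0.0489). Of all 11612 tested genes 0.207% passed, 0.181% lower and 0.0258% higher, and without replicate 2 the shares were 0.138% lower and 0.0172% higher, again with 0 of the 6 called. With the replicate number as a block, which compares libraries of equal number (the paired fit), Hapln1, Has2 and Vcan fell, Cd44 rose, and Acan and Hapln3 did not pass. This fit called 15.2% of all tested genes, 2.83% lower and 12.4% higher (329 and 1436 genes). With libraries centred on their median it called 9.31%, 4.32% lower and 4.99% higher (502 and 579 genes), and again 3 of the 6 lower and 1 higher. Without the replicate 2 pair it called 4 of the 6 lower and 1 higher, against 4.5% and 23.9% of all tested genes. The groups overlapped for all 9 genes when all libraries were used, where 5.9% of all tested genes did not overlap, 1.58% lower and 4.32% higher. Of the 6, 3 were lower with miR-204 in 4 of 4 pairs and 1 was higher, against 7.44% and 33.9% of all tested genes and 41.3% in either direction. The median change of the 6 tested genes was −0.28 on the log2 scale, against 0.064 for all tested genes, and 4 of the 6 lay below 0, as did 3003 of the 11612.

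The hyalectan Acan was the highest in level of the genes of this complex. Acan, the aggrecan core protein gene (gene ID 11595, chromosome 7, 79053483 to 79115099, plus strand), was at 1149, 407, 1324 and 959 FPKM in miR-204 replicates 1 to 4, and at 1572, 386, 1710 and 1249 FPKM in miR-Ctrl replicates 1 to 4. The groups overlapped, and the lowest library of each was replicate 2. Acan averaged 960 ± 398 FPKM with miR-204 and 1229 ± 594 FPKM with miR-Ctrl (SD, n = 4 each).

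Within pairs, the miR-204 level of Acan was 0.731, 0.774 and 0.768 times the miR-Ctrl level in pairs 1, 3 and 4, and 1.05 times in pair 2. The log2 change was −0.28 ± 0.54 (SE) without the block (limma, adjusted p = 0.935) and −0.28 ± 0.089 with it (adjusted p = 0.0773). Without both replicate 2 libraries it was −0.40, not past the threshold without the block (adjusted p = 0.349) and lower with it (SE 0.037, adjusted p = 0.00432), where 28.4% of all tested genes passed. The call on Acan thus rests on whether that pair is included. The summed chondrocyte markers were likewise higher with miR-204 in 1 of 4 pairs, pair 2, and 0 of the 10 passed in the paired fit. Singly they differed: Col2a1, the largest, and Sox9 were lower in all 4 pairs, Matn3 was higher in all 4, and the rest were mixed. The part of these markers in the Acan values was not tested. In these bulk libraries, fewer cells that make a transcript and less of it per cell cannot be told apart.

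Vcan, which encodes versican (13003, chromosome 13, 89655312 to 89742509, minus strand), was far less abundant. It was at 11.7, 18.9, 4.90 and 7.996 FPKM in miR-204 replicates 1 to 4 and at 14.2, 24.8, 5.37 and 10.9 FPKM in miR-Ctrl replicates 1 to 4. Here replicate 2 was the highest library of each group, the reverse of Acan, and replicate 3 the lowest. Per unit of transcript length, Acan exceeded Vcan by 98.1, 21.6, 270 and 120 times in miR-204 replicates 1 to 4, and by 111, 15.6, 318 and 115 times in miR-Ctrl replicates 1 to 4.

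Vcan was lower with miR-204 in 4 of 4 pairs, at 0.737 to 0.912 times the miR-Ctrl level. Its log2 change was −0.29 ± 0.48 (SE) without the block (adjusted p = 0.917) and −0.29 ± 0.056 with it (adjusted p = 0.0250). Without the replicate 2 pair the change was −0.26, still lower with the block (adjusted p = 0.0318). With no filter on low values the paired call was lost (adjusted p = 0.0670), and it was lost without pair 1 (0.103) or pair 4 (0.132). Over all genes the paired fit called 197 of 18849 lower with no filter. It called 83 of 11612 lower without pair 1 and 48 without pair 4, against 329 with all pairs. The change of Vcan in these 3 settings was −0.29, −0.30 and −0.25.

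**Figure D2:**
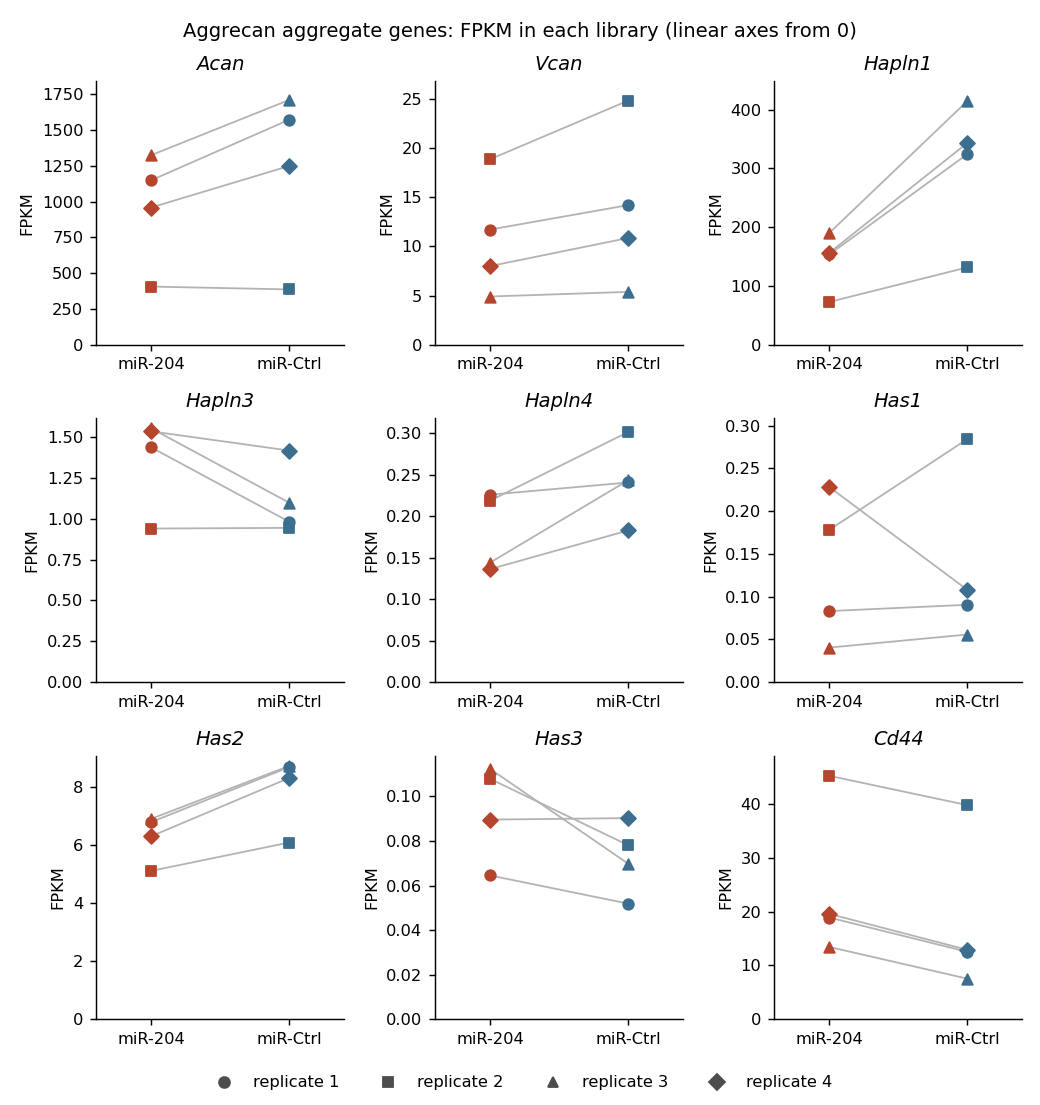
FPKM (y axes, linear, each on its own scale from 0) of the 9 genes in each miR-204 and miR-Ctrl library; markers give the replicate number and grey lines join libraries of equal number. Hapln1 lines all slope the same way, at 72.7 to 190 FPKM with miR-204 and 132 to 414 FPKM with miR-Ctrl, while Acan and Cd44 are split mainly by replicate 2.

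Among the link proteins, Hapln1 had the largest change, also over all 6 tested genes. It encodes the cartilage link protein, without which aggrecan is poorly held on hyaluronan. Hapln1 (12950) was at 153, 72.7, 190 and 156 FPKM in miR-204 replicates 1 to 4 and at 324, 132, 414 and 343 FPKM in miR-Ctrl replicates 1 to 4. Only miR-Ctrl replicate 2 lay inside the miR-204 range, so the groups overlapped through that library. Without replicate 2 the miR-204 libraries averaged 167 ± 20.3 FPKM and the miR-Ctrl libraries 361 ± 47.6 FPKM (SD, n = 3 each), with no overlap, as for 21.1% of all tested genes (4.09% lower and 17% higher).

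The miR-204 level of Hapln1 was 0.474, 0.553, 0.459 and 0.455 times the miR-Ctrl level in pairs 1 to 4. The log2 change was −1.04 ± 0.41 (SE) without the block (adjusted p = 0.531) and −1.04 ± 0.056 with it (adjusted p = 0.00136), so the fall was called only in the paired fit. It remained called in the paired fit without any one pair (adjusted p between 8.27e-04 and 0.0314). By size of change, Hapln1 was number 16 from the largest fall among 11612 tested genes, number 3 among the 776 tested genes with an 8mer, and number 1 among the 64 with 2 or more 8mers. Those 64 genes had a median log2 change of −0.084 and 18 were lower and 1 higher in the paired fit. The 712 tested genes with exactly 1 8mer, Has2 among them, had a median of 7.67e-05, with 118 lower and 30 higher. The 7064 tested genes with no match had a median of 0.078, with 64 lower and 1000 higher. The part of the matches in the changes of Hapln1 and Has2 was not tested.

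Hapln3 (67666), a more widely expressed link protein gene, was near the filter. It was at 1.44, 0.940, 1.55 and 1.54 FPKM in miR-204 replicates 1 to 4 and at 0.982, 0.944, 1.10 and 1.42 FPKM in miR-Ctrl replicates 1 to 4. It passed neither test, with a log2 change of 0.16 ± 0.12 (SE, adjusted p = 0.755) and a paired adjusted p of 0.176. Without the replicate 2 pair the change was 0.22 (paired adjusted p = 0.0721). In the annotation Hapln3 ends 2 bases from the end of Acan, on the opposite strand. The sources used here do not give whether the counting used strand, and any part of Acan reads in the far lower Hapln3 value was not tested. Hapln4 (330790), the link protein gene known from brain, was lower in 4 of 4 pairs but stayed under the filter. Its range was 0.136 to 0.226 FPKM with miR-204 and 0.183 to 0.301 FPKM with miR-Ctrl.

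**Figure D3:**
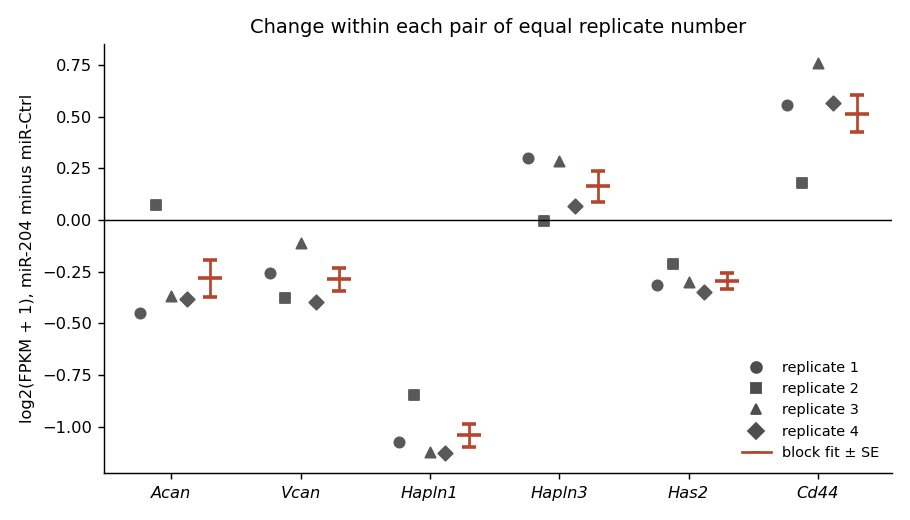
Difference in log2(FPKM + 1), miR-204 minus miR-Ctrl, within each pair of equal replicate number (grey markers) for the 6 tested genes, with the estimate of the fit with replicate block ± SE (red). Hapln1 lies between −1.13 and −0.85 in the 4 pairs, Has2 between −0.35 and −0.21, and Cd44 between 0.18 and 0.76; Acan is above 0 in pair 2 alone.

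Link protein and aggrecan meet in the same complex, so their transcripts were also set against each other. Per unit of length, Hapln1 stood at 0.134, 0.179, 0.143 and 0.163 of the Acan level in miR-204 replicates 1 to 4, and at 0.206, 0.340, 0.242 and 0.275 of it in miR-Ctrl replicates 1 to 4. The ratio averaged 0.155 ± 0.020 with miR-204 and 0.266 ± 0.057 with miR-Ctrl (SD, n = 4 each). The groups did not overlap, and within pairs the miR-204 ratio was 0.526 to 0.648 times the miR-Ctrl ratio. Replicate 2 had the highest ratio in both groups. This is a description with no test, since both genes were chosen with their changes known.

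**Figure D4:**
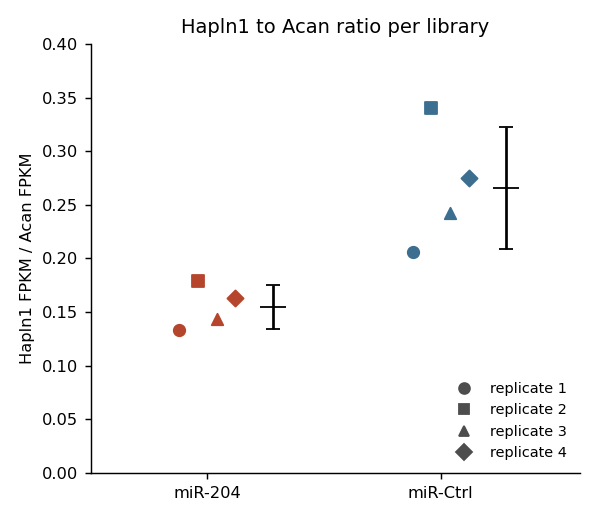
Hapln1 FPKM divided by Acan FPKM in each library (y axis from 0); markers give the replicate number and black bars the group mean ± SD. All miR-204 libraries lie at 0.134 to 0.179, below the miR-Ctrl libraries at 0.206 to 0.340.

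Of the hyaluronan synthases, Has2 was the one above the filter. Has2 (15117) encodes the synthase that makes most hyaluronan of developing limbs. It was at 6.80, 5.11, 6.91 and 6.31 FPKM in miR-204 replicates 1 to 4 and at 8.69, 6.09, 8.73 and 8.32 FPKM in miR-Ctrl replicates 1 to 4. As for Hapln1, only miR-Ctrl replicate 2 lay within the miR-204 range. Has2 averaged 6.28 ± 0.822 FPKM with miR-204 and 7.96 ± 1.26 FPKM with miR-Ctrl (SD, n = 4 each).

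Within pairs, Has2 with miR-204 was at 0.758 to 0.840 times its miR-Ctrl level. The log2 change was −0.29 ± 0.13 (SE) without the block (adjusted p = 0.577) and −0.29 ± 0.040 with it (adjusted p = 0.0108). Without the replicate 2 pair it was −0.32 (paired adjusted p = 0.00701). The paired call was lost without pair 1 (adjusted p = 0.0673), pair 3 (0.0518) or pair 4 (0.0900). Each of these leaves 3 pairs, and the changes were −0.29, −0.29 and −0.28. Of all 11612 tested genes, 83, 149 and 48 were then called lower, against 329 with all pairs.

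Has1 and Has3, the other synthase genes, were close to the detection limit. Has1 (15116) was at 0.0830, 0.178, 0.0403 and 0.228 FPKM in miR-204 replicates 1 to 4 and at 0.0904, 0.284, 0.0556 and 0.108 FPKM in miR-Ctrl replicates 1 to 4. Scaled to relative depth, these values were whole multiples of a common step to within 0.1 of a step: 6, 11, 3 and 17 steps with miR-204 and 7, 17, 4 and 8 steps with miR-Ctrl. A step stands for 1 fragment or a fixed whole number of fragments. Has3 (15118) was at 0.0646 to 0.112 FPKM (14, 20, 25 and 20 steps of its own size) with miR-204 and at 0.0519 to 0.0903 FPKM (12, 14, 15 and 20 steps) with miR-Ctrl. Has1 was lower with miR-204 in 3 of 4 pairs and Has3 higher in 3 of 4 pairs, and both were below the filter. With no filter on low values neither passed limma's test (adjusted p = 1 for Has1 and 0.792 for Has3 without the block, 0.994 and 0.266 with it).

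Cd44 (12505, chromosome 2, 102811141 to 102901665, minus strand) ran opposite to the link protein and the synthase. It was at 18.9, 45.3, 13.4 and 19.6 FPKM in miR-204 replicates 1 to 4 and at 12.5, 39.8, 7.55 and 12.9 FPKM in miR-Ctrl replicates 1 to 4. Replicate 2 was the highest library of both groups. Within pairs the miR-204 level was 1.51, 1.14, 1.78 and 1.52 times the miR-Ctrl level. The table lists 6 transcripts for Cd44 and 5 for Vcan, and the sources used here do not give how they were combined into 1 value.

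The log2 change of Cd44 was 0.51 ± 0.52 (SE) without the block (adjusted p = 0.833) and 0.51 ± 0.089 with it (adjusted p = 0.0185). It was 0.45 with centred libraries (paired adjusted p = 0.0241). Without the replicate 2 pair it was 0.63 (paired adjusted p = 0.00381) and the groups did not overlap, at 13.4 to 19.6 FPKM with miR-204 and 7.55 to 12.9 FPKM with miR-Ctrl. Of all tested genes, 17% were likewise higher without overlap and 4.09% lower. Of the 6 tested genes of the complex 4 did not overlap, Hapln1 and Has2 lower and Hapln3 and Cd44 higher. The paired call on Cd44 was lost with no filter on low values (adjusted p = 0.0604), where 542 of 18849 genes were called higher. It was also lost without pair 1 (adjusted p = 0.0946), pair 3 (0.0666) or pair 4 (0.106). Of all 11612 tested genes, 89, 236 and 42 were then called higher, against 1436 with all pairs. With 1 pair left out the change of Cd44 was 0.43 to 0.63.

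Leukocytes also carry CD44. Of 7 macrophage and leukocyte markers, Cd68 and Lyz2 were above the filter, and Cd68 rose in the paired fit. The 7 summed to 8.54 to 16.4 FPKM with miR-204 and 3.31 to 12.7 FPKM with miR-Ctrl, higher with miR-204 in 4 of 4 pairs. Cd68 and Lyz2 made up most of each sum and were each higher in 4 of 4 pairs. Adgre1 was lower with miR-204 in 4 of 4 pairs, at no more than 0.0909 FPKM with miR-204 and 0.188 FPKM with miR-Ctrl. So was Itgam, at no more than 0.0275 and 0.0427 FPKM, and the other markers were mixed. Ptprc, the pan-leukocyte gene, was at no more than 0.0309 FPKM with miR-204 and 0.0256 FPKM with miR-Ctrl, and was 0 in miR-204 replicate 3. Acta2 and Tagln, of the smooth muscle and pericyte markers, were also higher with miR-204 in the paired fit. The list of 5 summed to 230 to 326 FPKM with miR-204 and 135 to 171 FPKM with miR-Ctrl. Acta2 and Tagln made up most of each sum. Myh11, Rgs5 and Notch3 were under the filter and mixed. Rgs5 was lower with miR-204 in pairs 1 and 2, Myh11 in pair 1 and Notch3 in pair 2. The 6 fibroblast markers summed to 1507 to 3475 FPKM with miR-204 and 1565 to 3318 FPKM with miR-Ctrl. Their sum was higher with miR-204 in 2 of 4 pairs, and 2 of them rose in the paired fit. Thy1 and Dpt were higher in 4 of 4 pairs, and Col1a1, Col1a2, Col3a1 and Pdgfra were mixed. Osteoblast markers summed to 7.05 to 23.6 FPKM with miR-204 and 5.22 to 22.8 FPKM with miR-Ctrl, higher with miR-204 in 4 of 4 pairs. The median log2 change of the 3 above the filter was 0.42, and 0 of them passed in the paired fit. Of these 3, Sp7 was lower with miR-204 in pairs 1, 3 and 4, Bglap in pair 2 and Ibsp in pair 1. Endothelial markers reached at most 0.419 FPKM in sum with miR-204 and 0.348 FPKM with miR-Ctrl, and erythroid markers at most 0.345 FPKM with miR-204 and 0.121 FPKM with miR-Ctrl. The part of these lists in the result on Cd44 was not tested.

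How much of each gene's spread went with the mimic was read from sums of squares of log2(FPKM + 1) over the 8 libraries. The mimic took 44.4% for Hapln1, 42.9% for Has2, 23.9% for Hapln3, 11.0% for Cd44, 4.17% for Vcan and 3.27% for Acan. The median over all tested genes was 10.2%. The replicate number took 95.0% for Acan, 95.2% for Vcan and 87.2% for Cd44, and 55.1% to 60.2% for Hapln1, Has2 and Hapln3.

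**Figure D5:**
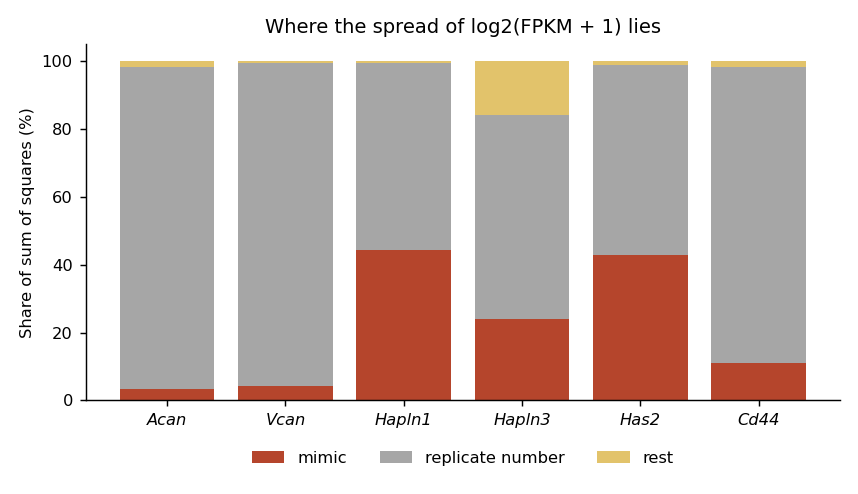
Share of the sum of squares of log2(FPKM + 1) over 8 libraries (y axis, %) that goes with the mimic (red), the replicate number (grey) and the rest (yellow), for the 6 tested genes. The mimic holds 44.4% for Hapln1 and 42.9% for Has2, and under 5% for Acan and Vcan.

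The tested genes whose levels ran most like Hapln1 over the 8 libraries, by Pearson's r of log2(FPKM + 1), were Mcu (0.993), Aaed1 (0.988), Has2 (0.986), Wwtr1 (0.971) and Hhipl1 (0.970). Mcu averaged 10.2 FPKM with miR-204 and 15.3 FPKM with miR-Ctrl. For Acan they were Fgfr3 (0.993), Pth1r (0.990), Il17d (0.989), Gfpt2 (0.988) and Serinc5 (0.986), and for Cd44 Gm2115 (0.998), Ctsc (0.998), Gclc (0.995), Kif3a (0.995) and Cmtm4 (0.995). These are descriptions over 8 points that share libraries and replicate numbers, picked as the highest of all tested genes.

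The rest of the hyaluronan and hyalectan pathway was followed in 49 genes of 7 lists, of which 34 were tested. Without the block, 0 passed by limma, and 0 were below an unadjusted p of 0.05. In the paired fit 5 of the 34 rose and 3 fell, where 12.4% of all tested genes were higher and 2.83% lower. With centred libraries 2 were higher and 5 lower, against 4.99% and 4.32% of all tested genes. Without the replicate 2 pair 12 were higher and 5 lower in the paired fit, against 23.9% and 4.5% of all tested genes. Without pair 1, 3 or 4 it called 0 of the 34 (14, 17 and 13 at an unadjusted p under 0.05). Of all 11612 tested genes, it called 89 higher and 83 lower without pair 1 (2454 and 478 unadjusted). Without pair 3 it called 236 and 149 (2374 and 577), and without pair 4 it called 42 and 48 (2120 and 465). Of the 34, 9 held a 7mer or 8mer and 4 held an 8mer (Tmem2, Itih5, Adamts5 and Ezr), of which Adamts5 and Ezr fell, Itih5 rose and Tmem2 did not pass.

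Of 7 genes that supply the sugars of hyaluronan, all were tested and 0 passed in the paired fit. Their median log2 change was −0.040. Ugdh, which makes UDP-glucuronic acid, was at 39.4 ± 1.71 FPKM with miR-204 and 44.1 ± 4.12 FPKM with miR-Ctrl (SD, n = 4 each), with a log2 change of −0.16 (paired adjusted p = 0.141). Ugp2, which makes UDP-glucose, was at 53.2 ± 2.18 FPKM with miR-204 and 54.1 ± 5.12 FPKM with miR-Ctrl (SD, n = 4 each).

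Of 6 genes for hyaluronan breakdown 4 were tested, with a median log2 change of 0.20, and 2 rose in the paired fit. These were the hyaluronidase genes Hyal1 (0.22, paired adjusted p = 0.0165) and Hyal2 (0.18, 0.0369), each higher in 4 of 4 pairs; Hyal2 did not pass with centred libraries (adjusted p = 0.126). Hyal1 averaged 8.20 ± 1.06 FPKM with miR-204 and 6.87 ± 0.824 FPKM with miR-Ctrl (SD, n = 4 each). With centred libraries 1 gene of this list was higher and 1 lower.

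Of 13 hyaluronan receptors and binding proteins 6 were tested, with a median of 0.30, and 2 rose in the paired fit. Hmmr, a hyaluronan-binding protein also known from the mitotic spindle, changed by 0.35 (adjusted p = 0.0450). Itih5, which belongs to the inter-alpha-trypsin inhibitor heavy chains, changed by 0.24 (adjusted p = 0.0481). Neither passed with centred libraries (adjusted p = 0.0822 and 0.133) or without the replicate 2 pair (0.0541 and 0.0619).

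Among 8 hyalectan-cleaving proteases and their inhibitor, 5 were tested, with a median of −0.15. Adamts5, an aggrecanase, fell in the paired fit (−0.40, adjusted p = 0.0365) and was lower in 4 of 4 pairs. It averaged 6.26 ± 4.31 FPKM with miR-204 and 9.43 ± 8.11 FPKM with miR-Ctrl (SD, n = 4 each). With centred libraries 2 genes of the list were lower.

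Of 5 matrix proteins listed as hyalectan ligands 4 were tested, with a median of 0.033. Comp, a pentameric cartilage matrix protein, fell in the paired fit (−0.17, adjusted p = 0.0401). Of 7 CD44 partners, ligands and sheddases, all tested, with a median of 0.15, 1 rose and 1 fell. Adam10, a protease that sheds CD44, rose (0.23, adjusted p = 0.0202), and Ezr, which links membrane proteins such as CD44 to actin, fell (−0.18, adjusted p = 0.0314). Both were also called with centred libraries (adjusted p = 0.0416 and 0.0160). With no filter on low values the paired fit called Hyal1 (adjusted p = 0.0440) and Adam10 (0.0484) among the pathway genes named here. The calls on Hyal2 (0.0679), Hmmr (0.108), Itih5 (0.109), Adamts5 (0.0950), Comp (0.139) and Ezr (0.0543) were lost. Over all genes that fit called 542 of 18849 higher and 197 lower. Among the remaining hyalectans and link proteins, Bcan was the 1 gene of 3 above the filter, at 1.10 ± 0.401 FPKM with miR-204 and 0.923 ± 0.390 FPKM with miR-Ctrl (SD, n = 4 each), and did not pass. Ncan averaged 0.0427 FPKM with miR-204 and 0.0313 FPKM with miR-Ctrl.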

How the data were processed

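Per the labels' protocols, total RNA was made into stranded libraries of polyadenylated RNA. The authors deposited 1 FPKM value per gene and library, per the file headers. The submitters' processing notes name TopHat, Cufflinks 2.2.1 and mm10. The sources used here do not give the TopHat version, the Cufflinks mode, the use of strand or a filter. No count model was used, since FPKM are not counts. Relative depth was read from steps between values under 0.3 FPKM of genes with 1 transcript.

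The 11612 genes averaging 1 FPKM or more entered limma (version 3.58.1, R 4.3.3) as log2(FPKM + 1). Tests were two-sided, used limma's trend option and were adjusted by Benjamini-Hochberg over all of these genes at 0.05. Adjusted p-values are from this test, and fold changes on this scale understate changes of low genes. The fit without the replicate number was taken first, and called unpaired; the paired fit has the number as a block. The number paired the libraries: deviations from group means correlated at r = 0.440 to 0.816 across genes between libraries of equal number, and 8 of 8 libraries correlated best with their own number. The labels give only the number, so the pairing comes from the data. The fit was checked on simulated data. These kept the replicate-number effects fitted to the libraries, so the check could not test the pairing.

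All 49 pathway and 39 marker genes had a row, 4 of them under an older symbol matched by Entrez ID. The named genes were the 9, up to 4 passing genes per list or else the 2 of highest mean, and the 5 of highest r with Hapln1, Acan and Cd44. Members and lists were chosen with earlier results of these data known. Alternatives covered the block, pseudocount, filter, scaling, prior and left-out libraries.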

Additional observations from a re-analysis of the deposited data

Results flagged for a closer look

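Within 4 of 44 groups of 4 libraries examined, 1 library lay far from the other 3; chance alone gives about 1 in 20. Has2 in miR-Ctrl replicate 2 was at 6.09 FPKM, against 8.32 to 8.73 FPKM in the other miR-Ctrl libraries. Cd44 in miR-Ctrl replicate 2 was at 39.8 FPKM, against 7.55 to 12.9 FPKM. Itih5 in miR-Ctrl replicate 2 was at 8.37 FPKM, against 2.05 to 2.86 FPKM. Hmmr in miR-204 replicate 4 was at 5.83 FPKM, against 2.99 to 3.24 FPKM in the other miR-204 libraries.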

How the results depend on the processing

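Among the 6 tested genes, 0 higher and 0 lower were called in every fit without the replicate block. With the replicate block, 1 was higher and 3 lower, also with centred libraries and with a pseudocount of 0.1. With the block and no filter, which tested all 9 genes, 0 were higher and 2 lower. With the block and 1 pair left out, 0 to 1 of the 6 were higher and 1 to 4 lower. Over all genes, 3 were higher and 21 lower in the fit without the block. The counts were 1436 and 329 with the block, and 579 and 502 with the block and centred libraries. With the block and a pseudocount of 0.1 they were 1434 and 332. With the block and no filter they were 542 and 197, of 18849 genes in place of 11612. Without the block limma called 0 and 9 of the 18849 with no filter (1123 and 357 had an unadjusted p under 0.05). It called 8 and 55 with centred libraries, and 7 and 66 with quantile normalization. Leaving out libraries or pairs gave 0 to 4 higher and 0 to 16 lower without the block, with 380 to 1503 higher and 149 to 317 lower at an unadjusted p under 0.05. With the block they were 89 and 83 without pair 1, 2781 and 522 without pair 2, 236 and 149 without pair 3, and 42 and 48 without pair 4.

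The direction of 7 genes, none of them called without the block, turned when libraries were left out, and the cause was not tested. The first was Has1, under the filter, with a difference of −0.0017 on all libraries and a range of −0.042 to 0.059. The log2 change of Acan ranged from −0.77 to 0.087, that of Vcan from −0.63 to 0.039 (0.0025 without miR-204 replicate 3), and that of Ugp2 from −0.065 to 0.039 (0.023 without pair 2, with or without the block). Itih5 ranged from −0.12 to 0.59, Adamts5 from −0.81 to 0.066 and Comp from −0.47 to 0.11. Hapln1 ranged from −1.40 to −0.75, Has2 from −0.40 to −0.21 and Cd44 from 0.18 to 0.97. These ranges are without the block. In the paired fit with 1 pair left out, Acan ranged from −0.40 to −0.23 and Vcan from −0.34 to −0.25. There Itih5 ranged from 0.17 to 0.28, Adamts5 from −0.49 to −0.29 and Comp from −0.19 to −0.14. Ugp2, at −0.038 to 0.023, was the gene of these that turned in the paired fit. The difference in Hapln1 to Acan ratio, miR-204 minus miR-Ctrl, ranged from −0.131 to −0.0863. The union of annotated 3′ UTRs gave the same counts of 7mers and 8mers for all 9 genes. The low levels of Hapln4, Has1 and Has3 limit their precision, and the number of fragments per library is unknown.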

Other observations

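Both replicate 2 libraries had the lowest Acan and the highest Cd44 and Vcan. Their levels of the other pathway genes were set beside those of the other 6 libraries, with no test. Of 34 tested pathway genes, 19 (55.9%) were higher in both replicate 2 libraries than in all other 6, 6 (17.6%) were lower in both and 9 were neither, against 30.5% higher and 8.98% lower of all 11612 tested genes. The aggrecanase genes Adamts4 and Adamts5 were above. Adamts4 was at 3.41 FPKM in miR-204 replicate 2 and 4.42 FPKM in miR-Ctrl replicate 2, against 0.744 to 1.95 FPKM in the other 6. Adamts5 was at 12.3 FPKM in miR-204 replicate 2 and 21.2 FPKM in miR-Ctrl replicate 2, against 2.22 to 7.24 FPKM. Timp3, the inhibitor of these proteases, was below, at 313 FPKM in miR-204 replicate 2 and 308 FPKM in miR-Ctrl replicate 2, against 716 to 887 FPKM.

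Further values, picked after they were seen, were as follows. Ptx3 was at 165 FPKM in miR-204 replicate 2 and 250 FPKM in miR-Ctrl replicate 2, against 25.8 to 74.2 FPKM in the other 6 libraries. Tnfaip6, which moves inter-alpha-trypsin inhibitor heavy chains onto hyaluronan, was at 3.29 FPKM in miR-204 replicate 2 and 3.67 FPKM in miR-Ctrl replicate 2, against 1.08 to 2.08 FPKM. Srgn, a proteoglycan of blood cells and a CD44 ligand, was at 23.3 FPKM in miR-204 replicate 2 and 31.8 FPKM in miR-Ctrl replicate 2, against 1.72 to 9.45 FPKM. Hmmr lay within the other libraries, at 2.99 FPKM in miR-204 replicate 2 and 2.16 FPKM in miR-Ctrl replicate 2, against 1.59 to 5.83 FPKM. These are values with no test, since the labels do not say what sets replicate 2 apart.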
